A study of Mus musculus with 16 samples.

Results

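The 8 genes H19, Meg3, Plagl1, Peg3, Dlk1, Grb10, Ndn and Mest are imprinted genes that act in growth. They were taken by gene symbol from a deposited table of transcript abundance in primary mouse preadipocytes, and all 8 were found, as 113 transcript entries, among 29060 genes. The cells were grown from the stromal-vascular fraction of interscapular brown fat or inguinal white fat, and every group came from C57BL/6N UCP1 reporter mice. Each depot was sequenced with Fgf8b, a secreted ligand of FGF receptors, and as a control, with 4 libraries in each of the 4 groups. The labels give no dose, no time, no description of the control treatment, and neither age nor sex of the mice. The design text speaks of 3 independent cultures where there are 4 libraries a group, so some libraries may share a culture and p-values cover only the spread seen here, part of which may be technical.

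An imprinted gene is read mainly from the chromosome copy inherited from the mother or mainly from that of the father, because the parental copies carry different DNA methylation. Many imprinted genes are high in growing embryonic and early postnatal tissue, are expressed together, and fall as growth slows. In fat, Dlk1 is known as a membrane protein of precursor cells that holds back adipocyte differentiation, Mest as a gene whose level follows fat mass expansion, and H19 as a noncoding RNA linked to brown fat. The libraries give the total from both parental copies, so which copy was read cannot be told from them.

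H19, Meg3 and Mest are also host genes of microRNAs, whose sequences are shown because a change in the host is a change in the transcript that contains or spans them. By the exons of GENCODE M21 (GRCm38.p6), miR-675 lies in an exon of H19 and miR-335 in an intron of Mest. Both miR-770 and miR-1906 (not printed) lie in annotated exons of Meg3. Capitals mark the seed, bases 2 to 8 from the 5′ end, and the 7 mature microRNAs in these 3 hosts have 7 different seeds. Mature microRNAs were not analysed here.
miR-675-5p: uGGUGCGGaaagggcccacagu
miR-675-3p: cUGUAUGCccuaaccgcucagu
miR-770-5p: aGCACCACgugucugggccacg
miR-335-5p: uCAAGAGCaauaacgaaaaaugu
miR-335-3p: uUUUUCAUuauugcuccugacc

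Promoters of 7 of the 8 genes matched the RefSeq table (GRCm38.p6), in 11 windows of 300 bases around a transcript start. They held 1 to 45 CpG dinucleotides, the methylatable step in mammalian DNA, against a median of 7 over 32851 promoters. The 250 bases upstream of the start are shown for Mest, whose summed entries fell furthest with Fgf8b, and for Dlk1, Grb10 and Plagl1, the matched genes whose responses differed most between depots. CpG is in capitals, and each is read 5′ to 3′ on the gene's strand. The Grb10 window at chr11:12037421-12037670 (minus strand) belongs to the richest of the 11, with 45 CpG in its 300 bases, more than 98.1% of all promoters, and holds 40 of them. It is also the only one of the 11 whose bases after the start were not found in an annotated transcript of its gene. The other Grb10 window, with upstream bases at chr11:12027972-12028221, was found in one and held 9 CpG, more than 54.2% of all promoters. The printed stretch of Plagl1 at chr10:13090582-13090831 holds 19 of the 26 CpG of its window, that of Mest at chr6:30737800-30738049 holds 14 of 17 and that of Dlk1 at chr12:109452573-109452822 holds 8 of 9, all on the plus strand.
Grb10: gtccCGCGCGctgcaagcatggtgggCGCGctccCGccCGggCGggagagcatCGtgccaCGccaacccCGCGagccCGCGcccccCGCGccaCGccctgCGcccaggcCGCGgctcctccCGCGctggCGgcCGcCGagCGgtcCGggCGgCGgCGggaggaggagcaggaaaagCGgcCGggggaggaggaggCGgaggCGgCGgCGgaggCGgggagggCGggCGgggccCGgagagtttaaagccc
Plagl1: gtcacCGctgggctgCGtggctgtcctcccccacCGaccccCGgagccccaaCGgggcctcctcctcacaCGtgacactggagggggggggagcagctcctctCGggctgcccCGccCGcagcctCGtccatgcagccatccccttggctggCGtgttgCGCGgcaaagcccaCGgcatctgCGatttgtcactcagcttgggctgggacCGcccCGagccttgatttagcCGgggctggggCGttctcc
Mest: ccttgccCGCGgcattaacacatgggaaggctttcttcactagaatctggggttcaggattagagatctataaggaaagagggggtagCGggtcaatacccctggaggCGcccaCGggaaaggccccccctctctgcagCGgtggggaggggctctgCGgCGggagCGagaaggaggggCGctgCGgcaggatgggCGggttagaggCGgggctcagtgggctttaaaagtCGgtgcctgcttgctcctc
Dlk1: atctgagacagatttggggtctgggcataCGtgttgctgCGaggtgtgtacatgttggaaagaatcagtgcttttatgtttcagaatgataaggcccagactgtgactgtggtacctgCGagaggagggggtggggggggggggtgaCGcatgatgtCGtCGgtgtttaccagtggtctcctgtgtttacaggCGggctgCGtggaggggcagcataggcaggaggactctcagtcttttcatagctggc

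Both strands of the 11 windows were searched for CCGGAAG, a core bound by ETS factors, and for TGANTCA, the AP-1 site, because FGF signalling is known to act through factors that bind them. Neither was found in any of the 11 windows, while 8.9% of all promoters hold the first and 7.8% the second. This describes these letters in these windows only.

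Recovered depth ran from 13.7 to 20.1 M reads a library. All 13 preadipocyte markers passed the filter on low values. Of the 5 brown depot markers, 3 were higher and 1 lower in brown than in white controls: Zic1 averaged 12.8 RPKM (read number scaled to transcript length and library depth) in brown and 0.176 in white controls, but Ebf3 6.93 and 7.86 RPKM and Prdm16 1.12 and 1.26 RPKM. All 6 tested markers of the white inguinal depot were lower in brown controls, Hoxc10 at 2.67 RPKM against 45.7 in white. The source label reads adipocytes. Of 7 markers of mature fat cells, Fabp4 averaged 5.82 to 18.1 RPKM and Lipe 1.92 to 2.24 RPKM over the groups, the other 5, Adipoq among them, at most 0.0424 RPKM in any group, and Cfd was at 0 in all 16 libraries. With Fgf8b the lists of cell markers shifted in both directions, within a list too. Of the 13 preadipocyte markers, 5 rose and 8 fell in white and 2 rose and 10 fell in brown cells. They summed to 5832.9 to 6085.0 RPKM in white controls and 2948.4 to 3118.1 with Fgf8b, and to 3940.8 to 4493.0 and 1579.4 to 1657.7 in brown, sums carried by abundant genes such as Col1a1 (1775.9 to 414.9 RPKM in white), while Thy1 went from 269.2 to 745.7 RPKM in white cells. Of the 6 mural markers, 2 rose and 3 fell in white and 1 rose and 4 fell in brown cells. Their sum went from 631.9 to 720.5 RPKM in white controls to 207.7 to 229.7 with Fgf8b, and from 983.9 to 1201.8 to 288.9 to 341.1 in brown, most of it Acta2 (641.3 to 178.9 RPKM in white), while Rgs5 went from 0.383 to 8.89 RPKM in white cells. Of the 6 Schwann cell markers, 0 rose, and 3 fell in white and 5 in brown cells. Their sum was 8.73 to 10.4 RPKM in white controls and 2.69 to 3.61 with Fgf8b, and 12.9 to 15.5 and 3.66 to 4.65 in brown. Of the 7 endothelial markers, 1 rose and 3 fell in each depot. Their sum was 11.1 to 12 RPKM in white controls and 2.39 to 2.92 with Fgf8b, and 7.64 to 8.91 and 1.5 to 1.88 in brown. Most of the control sum was Tek (9.29 to 0.608 RPKM in white), while Cdh5 went from 1.13 to 1.92 RPKM in white cells. Of the 8 leukocyte markers, 2 rose and 2 fell in each depot. Their sum was 5.3 to 6.13 RPKM in white controls and 6.81 to 7.62 with Fgf8b. In brown cells it was 6.47 to 8.96 and 9.3 to 10.2 RPKM. Cd14 was at 3.01 to 7.87 RPKM over the groups. Lyz2 went from 1.22 to 0.0919 RPKM in white cells and from 2.96 to 0.171 RPKM in brown cells. Cd3e was at 0 in all libraries. Of the 11 myoblast and muscle markers, 4 were tested: 1 rose and 1 fell in white, and 1 rose and 3 fell in brown cells. The sums of all 11 overlapped in white cells (5.69 to 8.17 and 4.97 to 6.2 RPKM). There Acta1 went from 5.94 to 2.05 RPKM and Chrna1 from 0.0274 to 2.67 RPKM. In brown cells the sum went from 9.16 to 11.4 to 5.66 to 6.56 RPKM. Over the groups Acta1 was at 2.05 to 9.29 RPKM and Chrna1 at 0.0274 to 3.46 RPKM, and Myod1 was at 0 in all libraries. Of the 8 mesothelial and epithelial markers, 4 were tested: 2 rose and 1 fell in white, and 3 rose and 0 fell in brown cells. The sums of all 8 overlapped between control and Fgf8b in both depots, within 10.3 to 15.4 RPKM. Most of each sum was Krt19 (13.3 to 10.2 RPKM in white), while Krt18 went from 0.0572 to 1.08 RPKM in white cells. The part of these shifts in the results was not tested, and fewer cells of a type cannot be told apart from less RNA per cell. Brown control 15 stood apart: the SD of the log2 difference over genes was 0.238 to 0.247 between it and the others of its group, against 0.136 to 0.175 for all other pairs within a group.

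With Fgf8b, 7 of the 8 genes fell and Peg3 rose, in white as in brown preadipocytes. Mest and Plagl1 fell at least 2-fold in both depots. Dlk1 fell at least 2-fold in white cells, H19 and Meg3 at least 2-fold in brown cells. All 8 passed the test in each depot (limma on log2 of the summed RPKM of a gene's entries plus 0.5, Benjamini-Hochberg adjusted p under 0.05 over 15222 genes), but 65.7% of all tested genes did so in white and 71.4% in brown cells, so passing says little about these 8. Of all tested genes, 36.3% rose and 29.5% fell in white cells, and 36.7% rose and 34.7% fell in brown cells. Changes of at least 2-fold downward numbered 3 of 8 in white and 4 of 8 in brown cells, against 7.3% and 9.29% of all tested genes. The median log2 change of the 8 was -0.42 in white and -1.11 in brown cells, against 0.04 and 0.01 over all tested genes. The 8 were chosen with earlier results of these data known, so such shares and medians, here and below, describe only these 8. The calls of Peg3 in both depots and of Dlk1 in brown cells were lost under several other settings, described with those genes.

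**Figure D1:**
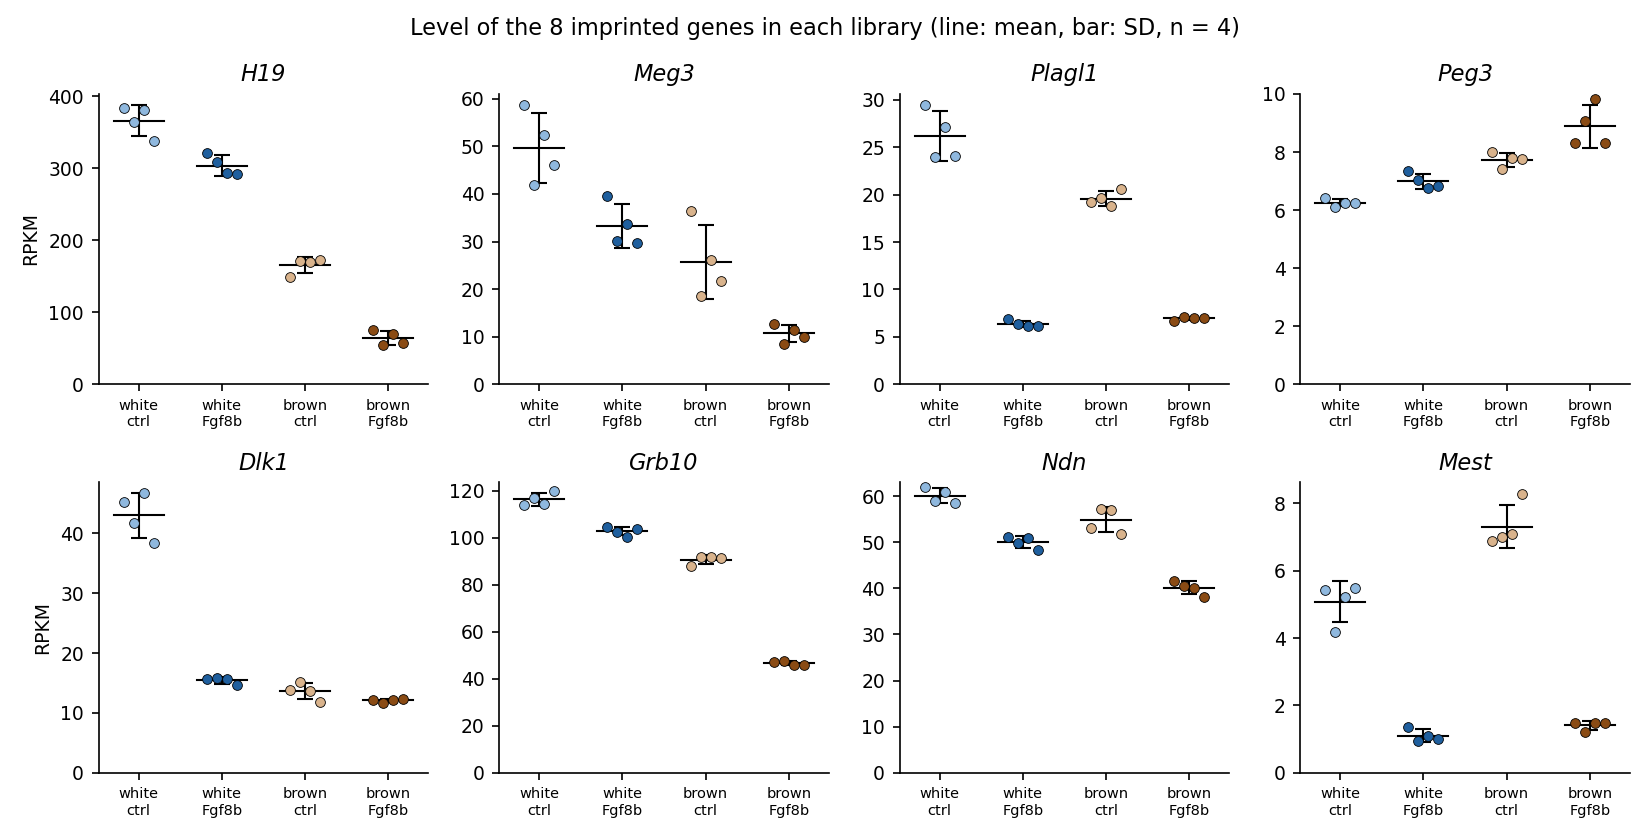
RPKM of the representative RefSeq entry of each gene (vertical axes, from 0) in the 4 groups, each point a library, with the group mean (line) and SD (bar, n = 4). Peg3 alone lies higher with Fgf8b; Mest and Plagl1 drop in both depots and Dlk1 mainly in white cells, from 43.0 to 15.4 RPKM.

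Levels below are those of a representative RefSeq entry, and changes are of the summed entries, so the ratio of the levels printed need not equal the fold change exactly. H19, a maternally expressed long noncoding RNA and the most abundant of the 8 in every group, had 382.9, 363.5, 380.1 and 337.3 RPKM in the white controls and 321.2, 308.3, 292.5 and 292.2 RPKM in the white Fgf8b libraries. The brown controls had 149.3, 171.1, 169.5 and 171.8 RPKM and the brown Fgf8b libraries 75.7, 55.0, 69.9 and 57.0 RPKM. The 4 groups did not overlap: white stood above brown, and control above Fgf8b in each depot. Group means were 366.0 ± 21 and 303.6 ± 14 RPKM in white and 165.4 ± 10.8 and 64.4 ± 10 RPKM in brown (SD, n = 4). On the log2 scale H19 fell by 0.27 in white (SE 0.081, limma adjusted p = 0.00673) and by 1.37 in brown cells (SE 0.081, limma adjusted p = 2.15e-11).

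Meg3, the maternally expressed noncoding RNA of the Dlk1-Dio3 locus, was uneven within groups, most so in brown controls. It had 58.6, 41.8, 52.3 and 46.1 RPKM in the white controls and 39.6, 30.2, 33.6 and 29.7 RPKM with Fgf8b. In brown cells it had 36.4, 18.6, 26.2 and 21.7 RPKM in controls and 12.7, 8.5, 11.5 and 10 RPKM with Fgf8b. Control and Fgf8b libraries did not overlap in either depot, while white Fgf8b and brown control did. In each group the library with the lowest number (white 1 and 2, brown 9 and 10) was the highest; no label pairs these libraries. Meg3 fell by 0.58 on the log2 scale in white (SE 0.152, limma adjusted p = 0.00263) and by 1.27 in brown cells (SE 0.152, limma adjusted p = 4.93e-07). Of the 31-base words of its annotated transcripts, 5.0% occur in other genes, mostly Gm27000, and the opposite-strand gene Gm26906 overlaps its exons, so part of its reads may be shared.

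Plagl1 encodes a zinc-finger transcription factor known to regulate other imprinted genes, and is paternally expressed. It had 29.5, 24, 27.1 and 24.1 RPKM in the white controls and 6.86, 6.33, 6.15 and 6.19 RPKM with Fgf8b. Brown controls had 19.2, 19.7, 18.8 and 20.6 RPKM and brown Fgf8b libraries 6.68, 7.09, 7.01 and 7.03 RPKM. White controls were the highest, brown controls next, and the Fgf8b libraries of both depots overlapped at the bottom. The representative entry rested on 2293 to 2638 reads per white control library and 538 to 562 per brown Fgf8b library. Plagl1 fell by 1.98 on the log2 scale in white (SE 0.086, limma adjusted p = 2.84e-13) and by 1.27 in brown cells (SE 0.086, limma adjusted p = 1.52e-10).

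Peg3, a paternally expressed zinc-finger protein gene, was the exception in direction. White controls had 6.42, 6.12, 6.26 and 6.23 RPKM and white Fgf8b libraries 7.34, 7.04, 6.76 and 6.83 RPKM. Brown controls had 7.99, 7.42, 7.78 and 7.75 RPKM and brown Fgf8b libraries 8.3, 9.08, 9.83 and 8.31 RPKM. The 4 groups did not overlap, with brown Fgf8b on top and white control at the bottom, but the steps were small. The log2 change was 0.14 in white (SE 0.058, limma adjusted p = 0.037) and 0.17 in brown cells (SE 0.058, limma adjusted p = 0.015). With upper-quartile scaling the changes were 0.08 in both depots (adjusted p = 0.227 in white, 0.239 in brown), and without brown Fgf8b 14 the brown change was 0.11 (adjusted p = 0.0735), so the rise is not firm. In white cells the call was also lost with median-of-ratios scaling (0.09, adjusted p = 0.165) and without any of the libraries 1, 2, 3, 4, 5 and 8, where adjusted p was 0.0512 to 0.103.

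Dlk1, the paternally expressed inhibitor of adipocyte differentiation, separated white controls from all other libraries. They had 45.3, 41.7, 46.8 and 38.4 RPKM, and white Fgf8b libraries had 15.7, 15.8, 15.6 and 14.6 RPKM. Brown controls had 13.8, 15.1, 13.7 and 11.8 RPKM and brown Fgf8b libraries 12.2, 11.7, 12.1 and 12.3 RPKM. With Fgf8b, white cells thus came down to near the brown level, and the brown groups overlapped. In white cells Dlk1 fell by 1.48 on the log2 scale (SE 0.063, limma adjusted p = 1.73e-13). The brown change was -0.16 (SE 0.063, limma adjusted p = 0.0337), and it missed the threshold with no filter on low values (adjusted p = 0.0587), without the trend and robust moderation (0.0606) and without any of the libraries 9 to 14, reaching -0.11 (adjusted p = 0.134) without brown control 11.

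Grb10 encodes an adaptor protein that restrains insulin and growth factor receptor signalling, and in most tissues is maternally expressed. White controls had 113.7, 116.8, 114.4 and 119.9 RPKM and white Fgf8b libraries 104.3, 102.5, 100.3 and 103.5 RPKM. Brown controls had 87.9, 91.6, 91.7 and 91.4 RPKM and brown Fgf8b libraries 47.3, 47.6, 45.7 and 45.8 RPKM. The 4 groups were apart, and the spread within them was small, with SDs of 0.998 to 2.8 RPKM. Grb10 fell by 0.17 on the log2 scale in white (SE 0.029, limma adjusted p = 3.14e-05) and by 0.95 in brown cells (SE 0.029, limma adjusted p = 8.52e-16).

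Ndn encodes necdin, a paternally expressed protein of the MAGE family that restrains cell cycle entry and adipocyte differentiation. White controls had 61.9, 58.9, 61.0 and 58.6 RPKM and white Fgf8b libraries 51.1, 49.8, 51.0 and 48.4 RPKM. Brown controls had 53.2, 57.2, 57.1 and 51.9 RPKM and brown Fgf8b libraries 41.6, 40.6, 40.1 and 38.2 RPKM. No groups overlapped, but the changes were modest: Ndn fell by 0.26 on the log2 scale in white (SE 0.038, limma adjusted p = 5.94e-06) and by 0.45 in brown cells (SE 0.038, limma adjusted p = 3.46e-09).

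Mest, a paternally expressed gene of the alpha/beta hydrolase fold, had the lowest mean of the 8 representative entries in every group. By summed entries it fell furthest of the 8 with Fgf8b in both depots. By representative entry it changed by -1.80 (log2) in white cells, less than Plagl1 at -1.95. The small value added to RPKM before the log2 shrinks changes of low entries, so this order need not hold for the levels themselves. Mean levels in white cells went from 5.09 to 1.1 RPKM for Mest and from 26.2 to 6.38 RPKM for Plagl1. For Mest, white controls had 5.44, 4.19, 5.22 and 5.5 RPKM and white Fgf8b libraries 1.37, 0.944, 1.08 and 1.01 RPKM. Brown controls had 6.89, 7.0, 7.1 and 8.27 RPKM and brown Fgf8b libraries 1.47, 1.2, 1.49 and 1.48 RPKM. Every control stood far above every Fgf8b library, and the Fgf8b libraries of both depots overlapped. The depth behind this is lower than for the entries of Plagl1, Peg3, Dlk1 and Grb10 read back the same way. Reads were not compared for H19, Meg3 and Ndn. A Mest entry with whole reads to within 0.15 had 211 to 250 reads per white control and 41 to 58 per white Fgf8b library. In brown cells it had 242 to 327 per control and 45 to 64 per Fgf8b library. Mest fell by 2.24 on the log2 scale in white (SE 0.127, limma adjusted p = 1.46e-11) and by 2.40 in brown cells (SE 0.127, limma adjusted p = 3.99e-12). Exons of Copg2 on the opposite strand overlap Mest, and strand-specific counting is not stated; Copg2 itself fell by 0.60 in brown cells (SE 0.059, limma adjusted p = 3.65e-08) and changed by -0.10 in white cells (SE 0.059, limma adjusted p = 0.14).

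Between control depots, 6 of the 8 genes were lower and 2, Peg3 and Mest, higher in brown than in white cells. All 8 passed, where 33.9% of all tested genes did, 18.1% higher and 15.9% lower in brown. Of the 8, only Dlk1 and H19 were at least 2-fold lower, against 1.31% of all tested genes: Dlk1 was lower by 3.18-fold (log2 -1.67, SE 0.063, limma adjusted p = 3.52e-13) and H19 by 2.2-fold (log2 -1.14, SE 0.081, limma adjusted p = 2.46e-09). Meg3 stood at -0.86, Plagl1 at -0.61, Grb10 at -0.35 and Ndn at -0.13, and Mest at 0.57 and Peg3 at 0.32, on the same log2 scale of brown minus white. Depot goes with library number, white being 1 to 8 and brown 9 to 16. Of 299 accessions repeated in the table, 145 have unequal values in white and 0 in brown libraries; none belongs to the 8 genes, and whether the depots were processed apart is not stated.

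With Fgf8b in both depots, the 8 genes split differently. H19 was lower in brown than in white cells by 4.7-fold (log2 -2.23, SE 0.081, limma adjusted p = 1.48e-13), Meg3 by 2.93-fold (log2 -1.55, SE 0.152, limma adjusted p = 1.16e-07) and Grb10 by 2.2-fold (log2 -1.13, SE 0.029, limma adjusted p = 2.34e-15). Dlk1 stood at -0.34 and Ndn at -0.32, and Mest at 0.41 and Peg3 at 0.34. Plagl1 did not pass, at 0.09 (SE 0.086, limma adjusted p = 0.41). So 7 of 8 passed, where 51.6% of all tested genes did, 26.9% higher and 24.7% lower in brown, and 3 of 8 were at least 2-fold lower, against 2.52% of all tested genes.

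Whether the response differed between depots was tested directly, as the log2 change in brown minus that in white cells. For 6 of the 8 genes it passed, 2 above and 4 below 0, as it did for 34.9% of all tested genes, 17.1% above and 17.8% below 0. The fall with Fgf8b was larger in brown cells for H19 (-1.09, SE 0.115, limma adjusted p = 8.25e-07), Grb10 (-0.78, SE 0.041, adjusted p = 1.4e-10), Meg3 (-0.69, SE 0.215, adjusted p = 0.0182) and Ndn (-0.19, SE 0.054, adjusted p = 0.0107). It was larger in white cells for Dlk1 (1.33, SE 0.089, adjusted p = 2.72e-09) and Plagl1 (0.70, SE 0.122, adjusted p = 0.000202). The difference was -0.16 for Mest (SE 0.180, adjusted p = 0.531) and 0.02 for Peg3 (SE 0.081, adjusted p = 0.851), neither past the threshold. The maternally expressed H19, Meg3 and Grb10 are thus 3 of the 4 genes with the larger fall in brown cells; with 8 chosen genes this is a description.

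**Figure D2:**
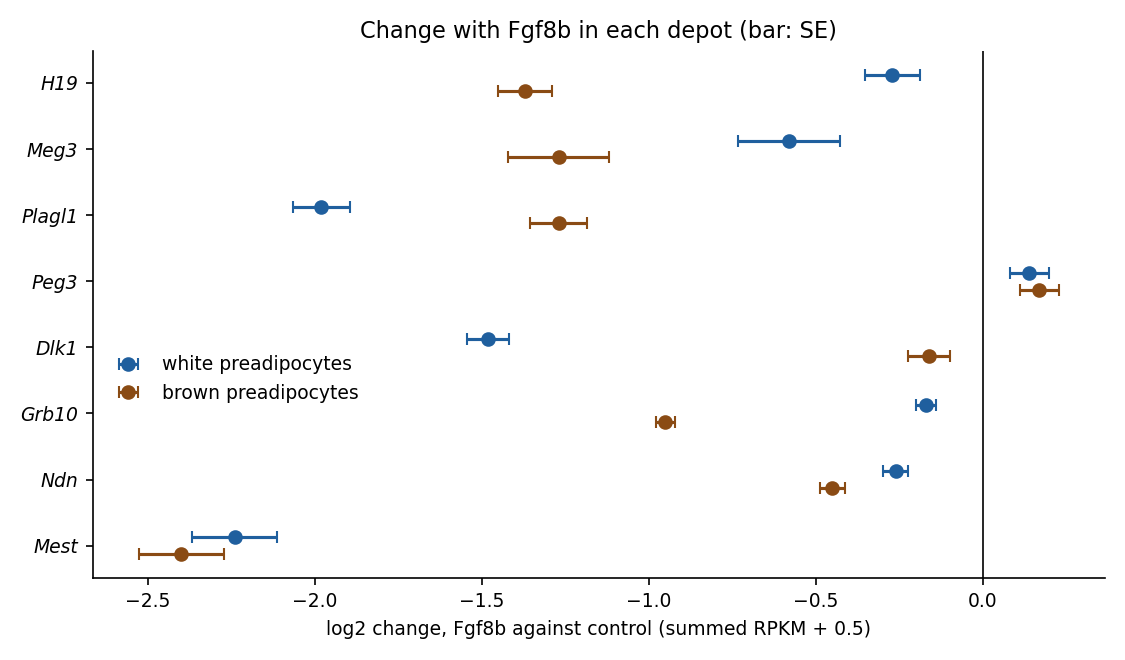
Log2 change with Fgf8b against control (horizontal axis, summed RPKM plus 0.5) for each gene in white and brown preadipocytes; points are fitted changes, bars their SE. H19, Meg3, Grb10 and Ndn lie further left in brown cells, Dlk1 and Plagl1 further left in white cells.

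Genes from shared loci changed by different amounts. Dlk1 and Meg3 lie in the same imprinted domain on chromosome 12 and are read from opposite parental copies. The log2 ratio of Dlk1 to Meg3 within a library, a measure chosen after its values were seen and given without a test, was -0.37, 0.00, -0.16 and -0.26 in the white controls and -1.33, -0.93, -1.10 and -1.02 with Fgf8b. In brown cells it was -1.41, -0.30, -0.93 and -0.88 in controls and -0.06, 0.46, 0.08 and 0.30 with Fgf8b. The ratio thus came down by 0.90 in white and went up by 1.07 in brown cells, and treated and control libraries overlapped in neither depot. Igf2, the paternally expressed growth factor gene next to H19 on chromosome 7, fell from 10.1 ± 1.05 to 1.91 ± 0.263 RPKM in white and from 8.82 ± 0.603 to 1.57 ± 0.34 RPKM in brown cells (log2 -2.44 in each, SE 0.117, limma adjusted p = 1.16e-12 and 8.42e-13). The log2 ratio of Igf2 to H19 fell by 2.13 in white, from -5.19 ± 0.08 to -7.32 ± 0.13, and by 1.15 in brown cells, from -4.23 ± 0.09 to -5.38 ± 0.25 (SD, n = 4).

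**Figure D3:**
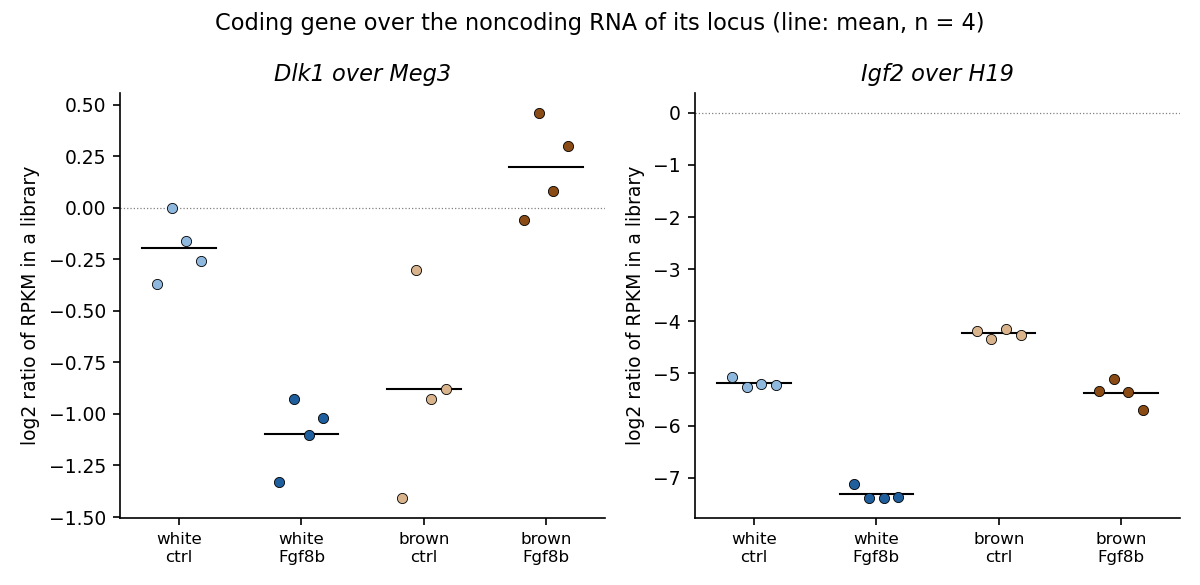
Log2 ratio of RPKM of Dlk1 to Meg3 and of Igf2 to H19 within each library (vertical axes); points are libraries and lines group means (n = 4). The Dlk1 to Meg3 ratio goes down with Fgf8b in white and up in brown cells, while the Igf2 to H19 ratio goes down in both.

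The table lists several transcript entries per gene, and entries of a gene can share reads. How a read that overlaps several entries was counted is not given. Of the 113 entries of the 8 genes, 111 passed the filter on low values. With Fgf8b, 93 fell and 3 rose in white cells (63% of all tested entries passed), and in brown cells also 93 fell and 3 rose (68.7%); the risers were all Peg3 entries. The 4 H19 entries moved alike, from -0.29 to -0.26 (log2) in white and from -1.40 to -1.30 in brown cells, and so did the 7 Ndn and 17 Grb10 entries. All 24 Plagl1 entries fell in both depots, from -2.26 to -1.13 in white and -1.43 to -0.75 in brown cells, and so did all 16 tested Mest entries. The 0.5 RPKM added before the log2 shrinks changes of low entries, so a range over entries need not mean that transcripts responded differently. Of the 14 Dlk1 entries, 14 fell in white and 8 in brown cells. Of the 21 Meg3 entries, 12 fell in white and 17 in brown cells, with changes from -0.63 to -0.07 in white and from -1.39 to -0.03 in brown cells. The difference of the responses passed for only 6 of the 21 Meg3 entries (-0.77 to 0.42 over all 21) and for 14 of the 24 Plagl1 entries. It passed for every entry of H19, Grb10, Dlk1 and Ndn. The level of a gene depends on the entry: white control means spanned 19.1 to 121.3 RPKM over the Dlk1 entries and 0.983 to 105.6 RPKM over those of Meg3.

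**Figure D4:**
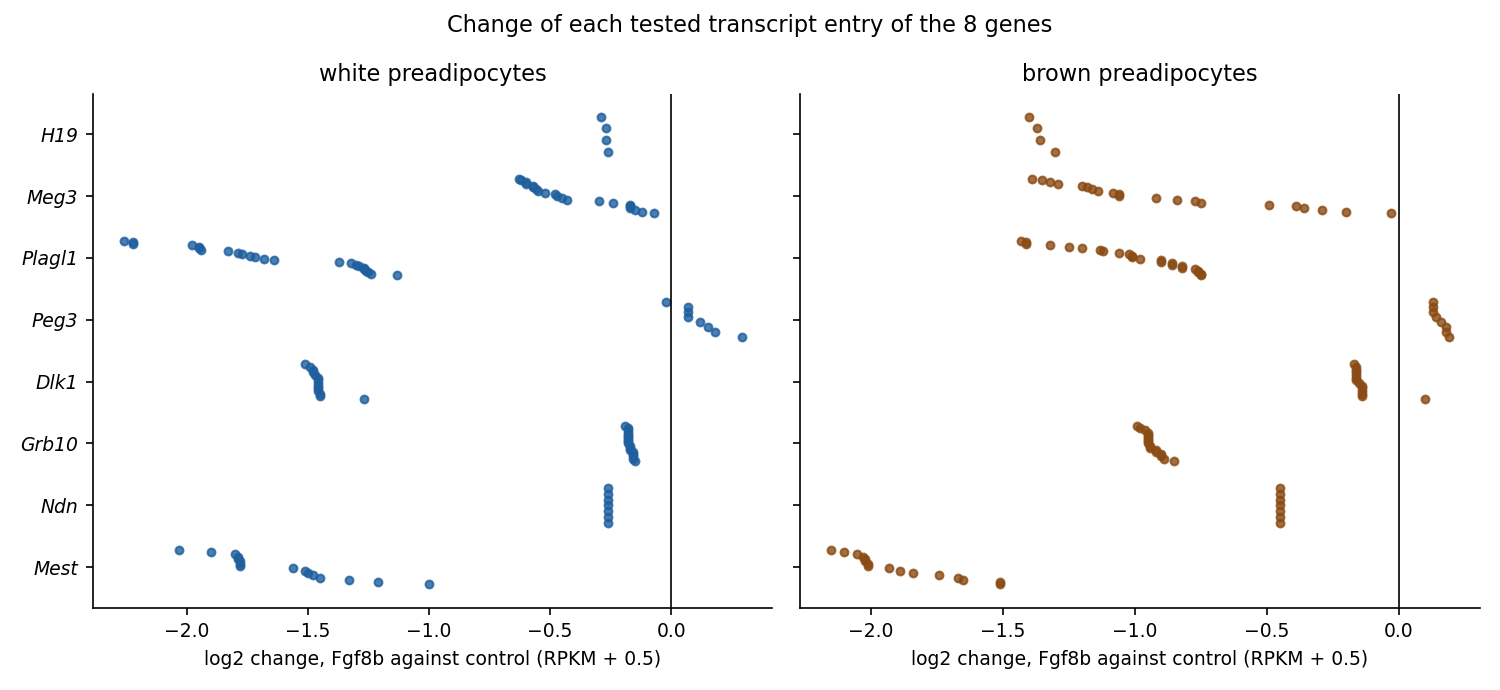
Log2 change with Fgf8b against control (horizontal axes, RPKM plus 0.5) of each of the 111 tested transcript entries, grouped by gene, in white (left) and brown (right) preadipocytes. Entries of Ndn, Grb10 and H19 lie close together, and those of Meg3, Plagl1 and Mest spread. The added 0.5 RPKM shrinks changes of low entries, so the spread need not be a difference between transcripts.

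Ordered by the level of the representative entry, H19, Grb10 and Ndn were the highest in every group, in that order and without overlap between neighbours. Every H19 entry averaged more than every entry of the other 7 genes in each group, but the places below it depend on the entry: in white controls the highest Dlk1 and Meg3 entries averaged 121.3 and 105.6 RPKM, above every Ndn entry (at most 62.2 RPKM). By representative entry, Meg3 and Dlk1 came next in white controls (49.7 and 43.0 RPKM, overlapping), Meg3 and Plagl1 in brown controls (25.7 and 19.6 RPKM, overlapping). Across the 16 libraries, Pearson's r of the log2 values ran from -0.90 (H19 and Peg3) to 0.97 (H19 and Grb10) over the 28 pairs, with a median of 0.64 and 21 above 0. With group means removed, r ran from -0.52 to 0.62, so the likeness lies mainly between the 4 groups. Among 11789 genes averaging 5 RPKM or more in summed level, those most like a member over the 16 libraries were Htra1 (r = 0.991) and Agtr1a (0.989) for H19, Prrt2 (0.979) and Ikbke (0.963) for Meg3, Gaa (0.988) and Gas2 (0.987) for Plagl1, and Myh9 (0.946) and Hoxc4 (0.942) for Peg3. They were Ace (0.984) and Isoc1 (0.981) for Dlk1 and Ly6a (0.987) and Islr (0.986) for Ndn. Chd3 (0.989) was among the 2 most like Grb10 and Tef (0.990) among the 2 most like Mest. Ly6a is also among the preadipocyte markers.

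A wider list of imprinted genes held 67 beside the 8, of which 64 matched the table and 50 were tested. Whether the listed genes are imprinted in preadipocytes was not tested. With Fgf8b, 14 rose and 18 fell in white cells and 10 rose and 25 fell in brown cells. That is 64.0% and 70.0% of the 50, near the 65.7% and 71.4% of all tested genes. Median log2 changes were -0.02 and -0.19 against -0.42 and -1.11 for the 8 and 0.04 and 0.01 over all tested genes. Of the full list of 75, 11 rose and 32 fell in brown cells, which became 5 and 35 with upper-quartile scaling. Between control depots 15 of the 50 were higher and 8 lower in brown (46.0% called, against 33.9% of all tested genes), and with Fgf8b 11 and 18 (58.0% against 51.6%). The difference of the responses passed for 5 upward and 17 downward (44.0% against 34.9%). Cdkn1c, a cyclin-dependent kinase inhibitor, fell from 32.6 ± 2.89 to 8.68 ± 0.951 RPKM in white (log2 -1.87, SE 0.123, limma adjusted p = 1.28e-10) and from 3.72 ± 0.386 to 1.33 ± 0.254 RPKM in brown cells (-1.45, SE 0.123, adjusted p = 3.91e-09). It was lower in brown than in white controls by 8.36-fold (log2 -3.06, adjusted p = 9.05e-13).

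Slc22a18, an organic cation transporter gene of the Cdkn1c cluster, fell to near 0: its level was 1.27 ± 0.232 RPKM in white and 1.16 ± 0.453 RPKM in brown controls and 0.0682 ± 0.0845 and 0.032 ± 0.0401 RPKM with Fgf8b, with some libraries listed at 0 (log2 -3.30 and -3.59, SE 0.357, limma adjusted p = 1.51e-07 and 3.91e-08). Rasgrf1, an exchange factor that activates Ras, rose from a low level, 0.177 ± 0.144 to 1.26 ± 0.335 RPKM in white and 0.104 ± 0.138 to 1.01 ± 0.389 RPKM in brown cells (log2 2.27 and 2.16, SE 0.257, limma adjusted p = 2.68e-07 and 4.3e-07). Tfpi2, a serine protease inhibitor, rose from 4.46 ± 0.51 to 21.7 ± 1.22 RPKM in white and from 5.79 ± 0.843 to 12.4 ± 1.15 RPKM in brown cells, by less in brown (difference of responses -1.15, SE 0.138, limma adjusted p = 3.74e-06). Dcn, the matrix proteoglycan decorin and one of the preadipocyte markers, rose from 168.4 ± 13.6 to 355.2 ± 13.4 RPKM in white cells and stood at 78.0 ± 7.8 and 74.5 ± 7.48 RPKM in brown cells. Peg10, a retrotransposon-derived gene, fell from 16 ± 0.352 to 7.63 ± 0.542 RPKM in white and from 16.4 ± 0.719 to 14.7 ± 0.567 RPKM in brown cells (difference of responses 0.92, SE 0.074, limma adjusted p = 3.23e-08). Gatm, an enzyme of creatine synthesis, was higher in brown than in white controls (1.03 ± 0.215 and 0.393 ± 0.0959 RPKM, log2 1.21, SE 0.185, limma adjusted p = 4.41e-05).

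Cluster mates did not all follow the member beside them. In the Dlk1-Meg3 domain, the noncoding RNA Rian had 57.6 ± 3.5 and 57.7 ± 1.86 RPKM in white cells without and with Fgf8b (log2 -0.02, SE 0.052, limma adjusted p = 0.71) and fell from 36.6 ± 2.22 to 24.3 ± 1.09 RPKM in brown cells (-0.64, SE 0.052, adjusted p = 2.43e-09). Mirg, another noncoding RNA there, had 12.7 RPKM in both white groups and 5.27 and 4.81 RPKM in brown control and Fgf8b cells, and neither change passed. Dio3, the thyroid hormone-inactivating deiodinase at the far end, fell in both depots, by 1.08 in white (limma adjusted p = 3.61e-07) and by 0.40 in brown cells (adjusted p = 0.00828). Begain fell by 0.63 in white cells (adjusted p = 0.000982) and stood at -0.20 in brown cells (adjusted p = 0.228). The difference of the responses passed for Rian (-0.61, limma adjusted p = 3.97e-06) and Dio3 (0.68, adjusted p = 0.00559).

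Beside Ndn, Peg12 rose by 0.33 in white and 0.76 in brown cells (log2, limma adjusted p = 0.000576 and 2.25e-08), and Mkrn3 by 0.51 and 0.38 (adjusted p = 0.00574 and 0.0313), where Ndn fell. Snrpn, a splicing protein gene of the same cluster, rose by 0.29 in white (adjusted p = 0.000212) and fell by 0.21 in brown cells (adjusted p = 0.0037), and Ube3a changed by 0.21 and 0.16 without passing. Atp10a stood at 0.05 in white (adjusted p = 0.325) and rose by 0.18 in brown cells (adjusted p = 0.00225). Beside Peg3, Zim1 fell by 0.39 in white and by 0.79 in brown cells (adjusted p = 0.0235 and 7.41e-05), against the rise of Peg3, and Usp29 rose from a mean summed level of 0.19 RPKM in white and 0.579 RPKM in brown controls, by 0.93 and 0.72 (adjusted p = 0.00217 and 0.0121). Ddc, next to Grb10, had under 0.5 RPKM in every group mean; its summed change was 0.50 in white (adjusted p = 0.187) and -1.20 in brown cells (adjusted p = 0.00301).

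**Figure D5:**
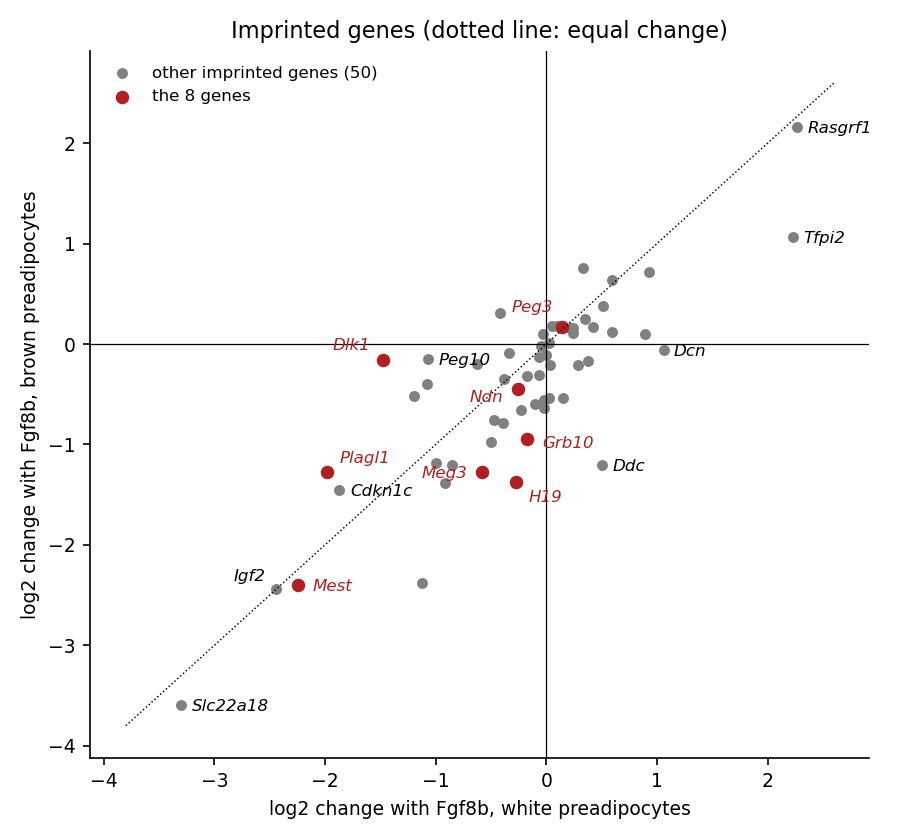
Log2 change with Fgf8b in white (horizontal axis) and brown (vertical axis) preadipocytes for the 8 genes (red) and the 50 other tested genes of the imprinted list (grey). The dotted line marks equal change. Mest lies near the line, Dlk1 and Plagl1 above it, and H19, Meg3, Grb10 and Ndn below it.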

How the data were processed

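Per the labels' protocols, total RNA (Trisure, then columns) went into TruSeq v2 libraries. CASAVA and bcl2fastq stand in the submitters' processing notes; aligner, counter, build and strandedness are not given there. The authors deposited RPKM per transcript entry, written with decimal commas, for 168326 entries and 16 libraries. Entries with no gene symbol (23172) and repeated accessions (808 entries) were left out, and the rest were summed by symbol. The filter on low values, 0.5 RPKM or more in 4 or more libraries, left 15222 of 29060 genes. The log2 of the sum plus 0.5 was tested with limma 3.58.1 (R 4.3.3, trend and robust moderation, all 16 libraries in 1 fit), with Benjamini-Hochberg adjustment over all genes kept. This scale understates changes of low genes. Values up to 50 reads lay within 0.1 of whole reads for 95.7 to 96.0% of entries with a GENCODE M21 length, which gave the depths.

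The code of the test was run on simulated data. Their spread was set and not taken from these libraries, so that run gives no error rate for these results. Named genes were the 8 members, the 4 list genes that changed most in each comparison and averaged 1 RPKM or more, tested cluster mates of members, and the 2 genes most like each member; results for 2 of these are not reported here. The members and lists were chosen with earlier results of these data known. Alternatives were pseudocounts of 0.1 and 1, other filters, median-of-ratios and upper-quartile scaling, a representative entry, repeats kept, limma without moderation options, only the groups compared, and each library left out. Python 3.11.15 with pandas 2.3.3, numpy 2.4.6 and matplotlib 3.10.9 did the rest.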

Additional observations from a re-analysis of the deposited data

Results flagged for a closer look

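Single libraries stood apart from the other 3 of their group by Dixon's test in 12 of 116 groups tested (29 genes); chance gives about 5% of groups. H19 was low in brown control 9 (149.3 RPKM, others 169.5 to 171.8), and so was Grb10 (87.9 RPKM, others 91.4 to 91.7). Dlk1 was low in white Fgf8b 8 (14.6 RPKM, others 15.6 to 15.8). Mest was high in brown control 15 (8.27 RPKM, others 6.89 to 7.1), the library that differs most from its group over all genes, and low in brown Fgf8b 12 (1.2 RPKM, others 1.47 to 1.49). Igf2 was high in white Fgf8b 2 (2.3 RPKM, others 1.75 to 1.83) and Ddc in brown Fgf8b 16 (0.209 RPKM, others 0.0639 to 0.0701). Among the cluster mates, Rian was high in brown Fgf8b 14 (25.9 RPKM, others 23.7 to 23.8), Zim1 in white Fgf8b 2 (0.902 RPKM, others 0.629 to 0.654) and Copg2 in brown Fgf8b 16 (8.07 RPKM, others 7.76 to 7.79). Ube3a was high in white control 5 (17.2 RPKM, others 15.9 to 16.1) and in brown control 15 (22.6 RPKM, others 15.2 to 16.1).

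The log2 response to Fgf8b differed between depots, brown minus white, in limma's interaction contrast for 15 of these 29 genes. Of all tested genes, 34.9% passed this contrast. Among the members the difference was -1.09 for H19, -0.69 for Meg3, 0.70 for Plagl1, 1.33 for Dlk1, -0.78 for Grb10 and -0.19 for Ndn. Among the other imprinted genes that changed most it was -1.12 for Dcn (limma adjusted p = 4.31e-08), -1.69 for Ddc (adjusted p = 0.00763), 0.92 for Peg10 (adjusted p = 3.23e-08) and -1.15 for Tfpi2 (adjusted p = 3.74e-06). Among the cluster mates it was -0.61 for Rian (adjusted p = 3.97e-06), 0.68 for Dio3 (adjusted p = 0.00559), -0.49 for Copg2 (adjusted p = 0.000155), 0.43 for Peg12 (adjusted p = 0.00321) and -0.49 for Snrpn (adjusted p = 0.000116). In the wider list, 22 of the 50 imprinted genes beside the members passed (44.0%), the 9 named here included.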

How the results depend on the processing

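Of 776 alternative values of the members' changes, 756 kept their direction and side of the threshold, 19 kept their direction and lost the call, and 1 changed sign. The 19 belong to Peg3 in white, Peg3 in brown and Dlk1 in brown cells with Fgf8b. The sign change was that of the difference of responses of Peg3, -0.03 without brown Fgf8b 14 (limma adjusted p = 0.759) and up to 0.07 without other libraries, none past the threshold. With Fgf8b, 7 to 8 members were called in white and 6 to 8 in brown cells when any library was left out. The number of imprinted genes called higher in brown cells went from 11 to 5 with upper-quartile scaling. This scaling moved the median log2 change over all tested genes in brown cells from 0.01 to -0.08. The part of that shift in the count was not tested. The ratios within libraries kept their direction without any library, added after seeing the data: the change of the Dlk1 to Meg3 ratio ran from 0.90 to 1.27 in brown and from -0.96 to -0.82 in white cells. No paired analysis was possible because no replicate number is shared between groups, and no label pairs libraries of consecutive numbers. Depth limits low genes: Mest rested on 41 to 64 reads per Fgf8b library, and group means of Slc22a18, Rasgrf1, Ddc and Usp29 lay between 0.0152 and 1.27 RPKM.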
